A study of Homo sapiens with 6 samples.

Results

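RAB GTPases are small membrane switches of the RAS superfamily that direct vesicles between the compartments of a cell. The members were the genes whose symbol is RAB followed by a number and at most 1 letter, a rule that uses names and no measured value. It found 50 of the 11593 gene symbols listed, with 100 of the 28768 transcript rows. RefSeq (GRCh38.p14) holds 63 protein-coding symbols of that form. The other 13 (RAB3C, RAB6C, RAB6D, RAB7B, RAB17, RAB19, RAB20, RAB25, RAB37, RAB40A, RAB41, RAB42 and RAB44) were not among the symbols listed, so they have no value here. The members lay on 20 chromosomes.

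An exchange factor loads a RAB with GTP and holds it on its membrane, the GTP-bound form recruits effectors such as tethers and motor adaptors, and a GTPase-activating protein switches it off. RAB escort proteins present new RABs to a geranylgeranyl transferase, which adds the lipid anchors, and GDI carries the inactive form back through the cytosol. In epithelial and liver-derived cells the family serves secretion, endocytosis, receptor recycling and lysosomal delivery.

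The study asked which messenger RNAs are retrieved together with the long noncoding RNA SNHG10, by ChIRP, in which biotinylated antisense probes pull down an RNA with what is crosslinked to it. All 6 libraries came from SK-Hep1, an established line labelled hepatocellular carcinoma, and no other treatment or genotype is named. In 3 libraries the probe set was directed at SNHG10 and supplied by RiboBio, and in 3 controls it was directed at the bacterial gene LacZ and supplied by Millipore, so target and supplier cannot be told apart. The series design speaks of sequencing the RNA that was retrieved, while the sample protocols describe total RNA taken with Trizol and no retrieval step, so the fraction sequenced is unsettled, and the labels do not say whether replicates were separate cultures, so p-values measure a spread that may be technical.

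Values are FPKM, fragments per kilobase of transcript scaled to library size, summed here over the transcripts of a gene. FPKM totals ran from 268794 to 277118 per library, and the read depth behind them is unknown; 159 values lay between 0 and 0.001 FPKM. Some genes at 0 may be failed estimates. Hepatocyte markers were almost missing: 2 of 9 were listed, CPS1 and SERPINA1, at no more than 1.53 FPKM in any library. Of 10 endothelial markers 3 were listed, with ENG at 30.7 to 41.8 FPKM, EGFL7 at 7.45 to 26.0 and ROBO4 at 0.805 to 2.00. EGFL7 and, at its low level, CPS1 (0.505 to 0.796 against 0.883 to 1.53 FPKM) were lower in all 3 SNHG10 libraries, and their part in any RAB value was not tested.

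No RAB mRNA passed the test for a difference between the probe sets. Of the 50 members, 45 reached 1 FPKM in at least 3 libraries and were tested with all 10304 such genes by limma on log2(FPKM + 1). Of those 45, 0 passed a Benjamini-Hochberg adjusted p of 0.05 in either direction, as did 0.0% of all genes, and the smallest adjusted p among members was 0.885. At an unadjusted p under 0.05 there were 2 members, RAB1A and RAB6A, both lower with SNHG10 probes. That is 4.44% of members beside 5.42% of all genes tested, of which 2.1% were higher and 3.32% lower. The log2 difference was above 0 in 17 members and below 0 in 28, with a median of -0.12 and a range from -1.03 to 1.46. Over all genes the median was -0.05, and 56.7% were negative beside 62.2% of members. With the libraries scaled by median ratios, the split was 18 above and 27 below. The median standard error (SE) of a member's log2 difference was 0.35.

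**Figure D1:**
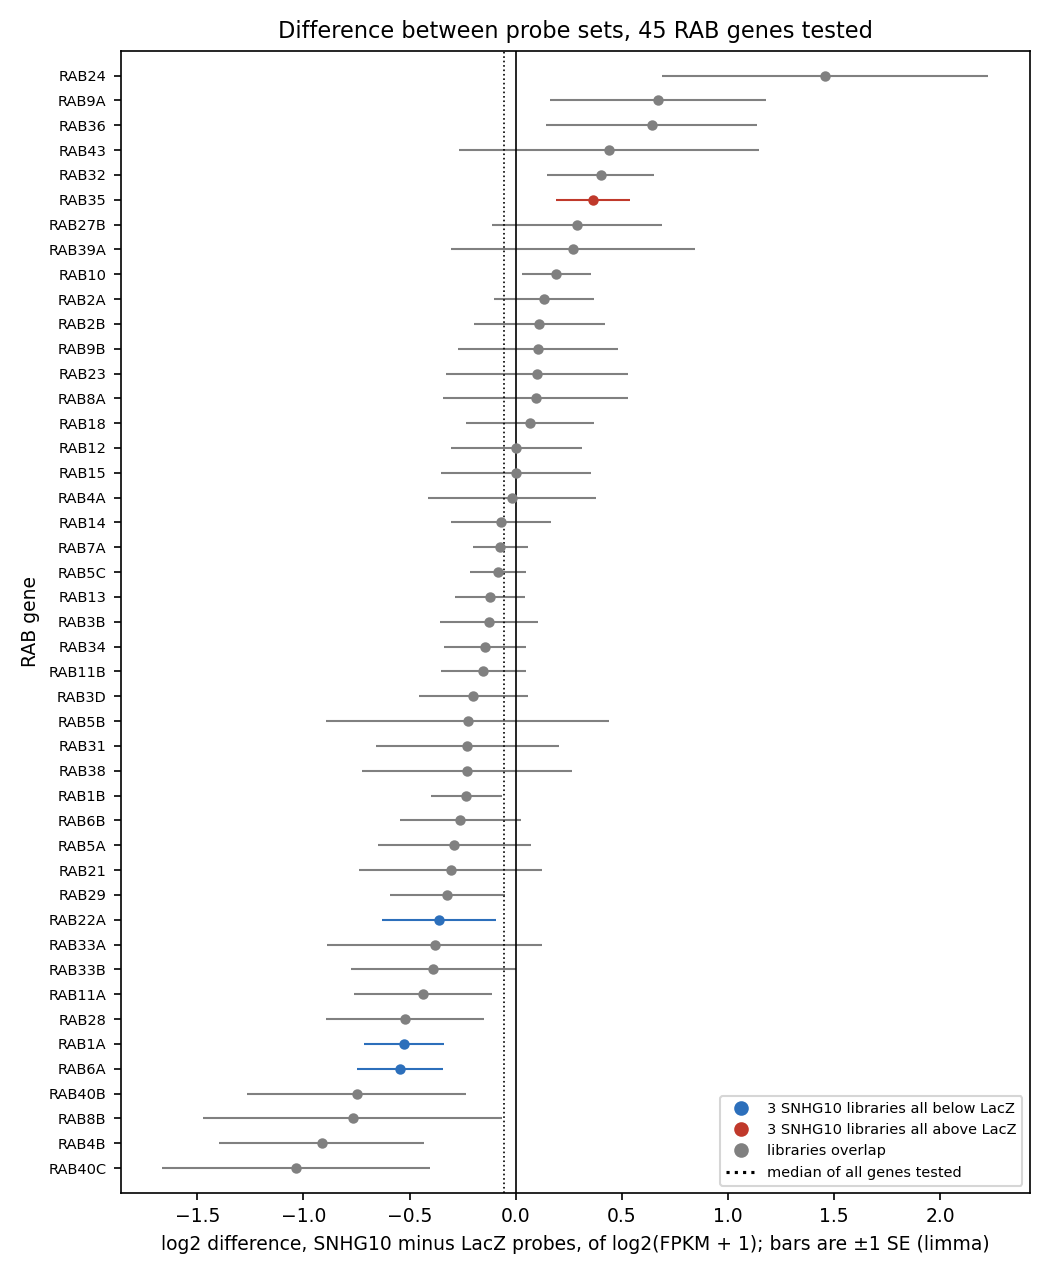
Log2 difference (SNHG10 minus LacZ probes, log2(FPKM + 1) scale, x axis) of the 45 RAB genes tested, sorted on the y axis, with bars of 1 SE from limma. Blue and red mark the 4 genes whose libraries did not overlap, and the dotted line is the median of all genes tested, -0.05. The differences farthest from 0, 1.46 for RAB24 and -1.03 for RAB40C, have wide bars, with SE of 0.77 and 0.63.

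RAB mRNAs spanned a wide range of levels, led by regulators of the early endosome, the Golgi and the late endosome. RAB5C, which drives fusion of early endosomes, was the most abundant at a mean of 84.4 FPKM over the 6 libraries. RAB1B, which acts between the endoplasmic reticulum and the Golgi, followed at 73.3, and RAB7A, which directs late endosomes to lysosomes, at 69.7. RAB34, linked to lysosome positioning and primary cilia, averaged 54.4 and RAB11B, of recycling endosomes, 38.5 FPKM. These 5 genes held 47.5% of the summed FPKM of the family. In all, 10 members averaged at least 20 FPKM, 16 between 5 and 20, 19 between 1 and 5, and 5 less than 1. The median member averaged 5.04 FPKM, beside 6.53 for all genes listed.

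**Figure D2:**
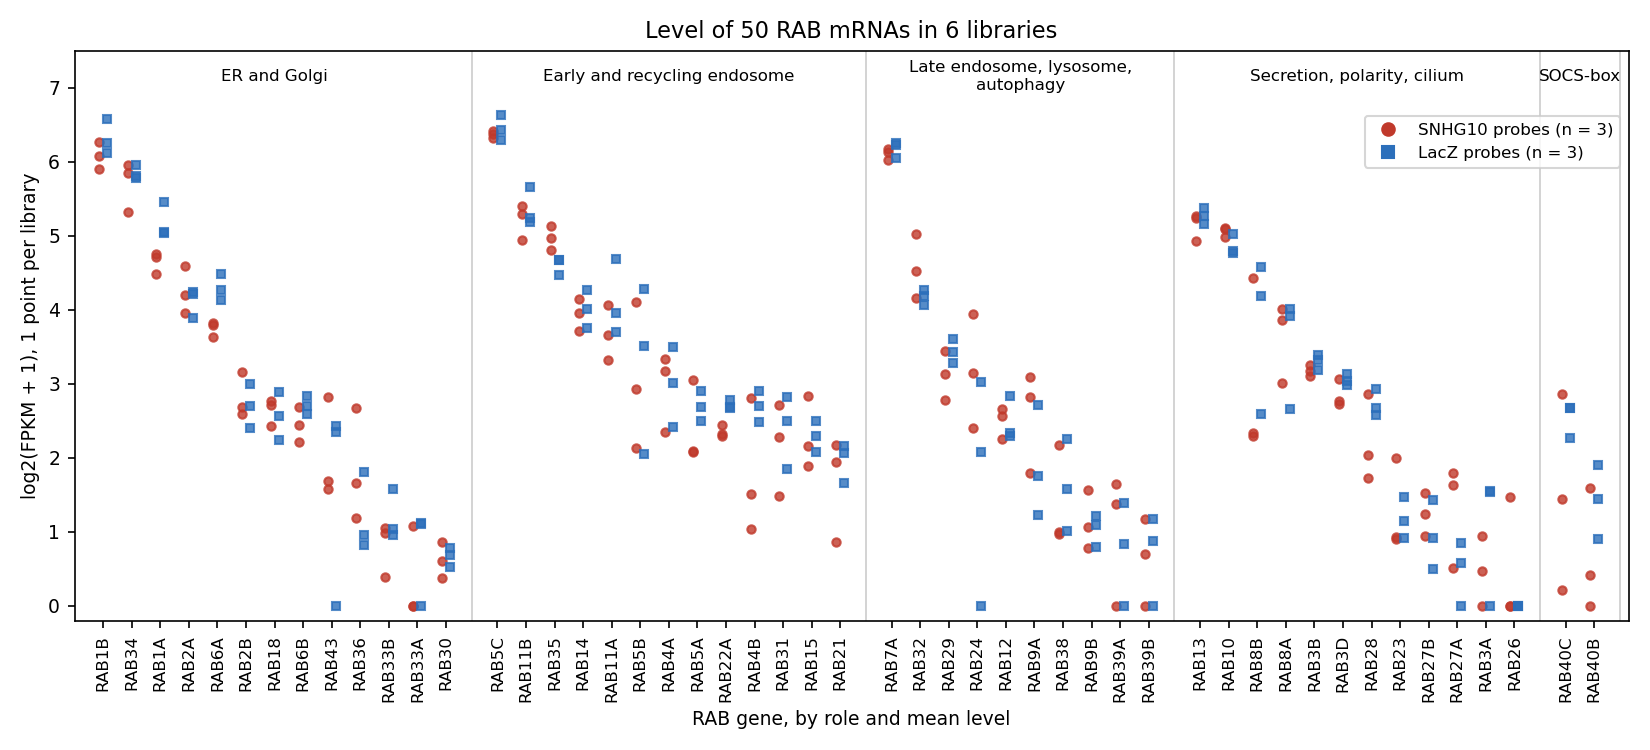
Level of each of the 50 RAB mRNAs as log2(FPKM + 1) on the y axis, 1 point per library, with genes on the x axis grouped by role and sorted by mean. Red circles are the 3 SNHG10 libraries and blue squares the 3 LacZ libraries. RAB5C, RAB1B and RAB7A lead, and points at 0 appear in 9 genes, most of them at low levels.

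Neighbours in that order could rarely be told apart. In 48 of 49 neighbouring pairs the ranges over the 6 libraries overlapped. The exception was RAB7A, whose lowest library (63.8 FPKM) lay above the highest of RAB34 (61.03). At the low end, RAB26 was listed at 0 in 5 libraries and at 1.76 FPKM in SNHG10 replicate 2. RAB30 stayed between 0.293 and 0.819, and RAB3A, RAB39B and RAB27A reached at most 1.92, 1.26 and 2.48 FPKM. These 5 genes did not reach the level for testing. A total of 41 members were above 0 in all 6 libraries.

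Among RABs of the endoplasmic reticulum and Golgi, RAB1A and RAB6A had the smallest p of the family. RAB1A starts the transport of cargo from the endoplasmic reticulum to the Golgi. It read 26.0, 21.5 and 25.3 FPKM in the SNHG10 libraries, compared with 31.8, 32.3 and 42.7 under LacZ probes. All 3 SNHG10 libraries lay below all 3 LacZ libraries, and LacZ replicate 3 was the highest. The log2 difference was -0.53 ± 0.19 (SE), with an adjusted p of 0.885 over all genes by limma. The exact permutation p was 0.1, the smallest that 3 against 3 libraries allow. Every fully separated gene gets that p, so here and below it only restates the separation. Its listed transcripts span chromosome 2, 65313989 to 65357240, minus strand (hg19), and overlap CEP68 on the opposite strand. RefSeq also names 2 pseudogenes, RAB1AP1 and RAB1AP2, with which reads could be shared.

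RAB6A, which acts in retrograde transport and in exit from the Golgi, read 12.9, 11.4 and 13.1 FPKM in the SNHG10 libraries, compared with 18.3, 16.5 and 21.5 under LacZ probes. The probe sets did not overlap. Its log2 difference was -0.55 ± 0.20 (limma adjusted p = 0.885, exact permutation p = 0.1). It spans chromosome 11, 73386683 to 73472182, minus strand (hg19), and the near-identical retrogene RAB6C, a possible sharer of reads, was not listed. The groups differ in probe set and not in cells by label. In bulk RNA such as this, less retrieval of an mRNA, fewer cells with it and less of it per cell cannot be told apart.

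**Figure D3:**
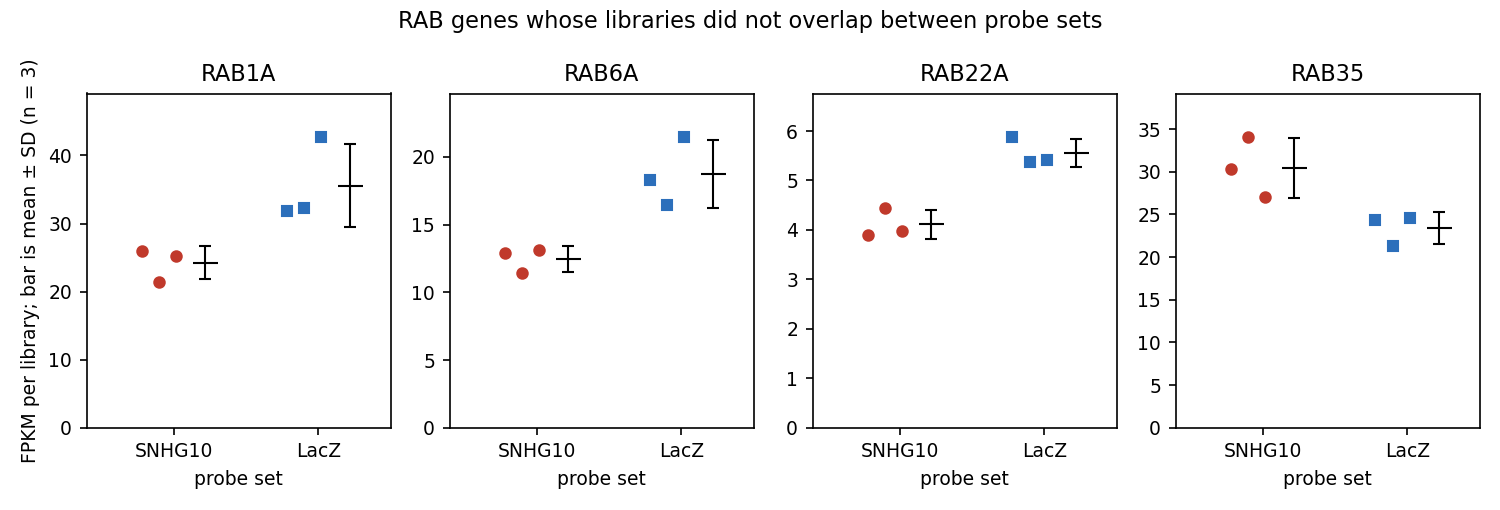
FPKM per library (y axis, from 0) of the 4 RAB genes whose 3 SNHG10 libraries (red circles) lay all below or all above the 3 LacZ libraries (blue squares), with the mean ± SD (n = 3). RAB1A, RAB6A and RAB22A were lower and RAB35 higher with SNHG10 probes, and none passed the adjusted threshold.

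Other members of that compartment did not separate. RAB1B, the close paralog of RAB1A, read 59.1, 76.2 and 66.2 FPKM against 68.7, 94.3 and 75.3, with overlapping libraries and a log2 difference of -0.23 ± 0.17 that was -0.15 without SNHG10 replicate 1 and -0.10 without LacZ replicate 2. RAB34 was counted in this group, although it is also linked to lysosome positioning and primary cilia. It read 38.9, 56.4 and 60.9 against 53.7, 55.2 and 61.0, with only SNHG10 replicate 1 low. RAB36, a Golgi relative of RAB34, read 2.14, 1.27 and 5.38 against 2.50, 0.769 and 0.933, with SNHG10 replicate 3 far above the rest and a log2 difference of 0.64 ± 0.50 that was 0.22 without that library and 0.97 without SNHG10 replicate 2. The log2 difference was above 0 in 5 of the 12 tested genes of this group and below 0 in 7. The 2 separated genes, both lower, are 16.7% of the group beside 11.4% of all genes tested (7.21% lower), a difference that was not tested.

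RAB43, of transport into and through the Golgi, shares its locus with a listed read-through gene. It read 1.98, 6.08 and 2.23 FPKM in the SNHG10 libraries, compared with 4.37, 0 and 4.08 under LacZ probes. A read-through gene that contains it, ISY1-RAB43, read 0, 0 and 5.30 against 0, 6.98 and 0. The library in which RAB43 was listed at 0 was thus the highest for the read-through gene. The sum of both read 1.98, 6.08 and 7.53 against 4.37, 6.98 and 4.08, with no library at 0.

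Log2 differences of the RABs of early and recycling endosomes lay mostly below 0, without a call. Of 13 tested genes, 2 were above 0 and 11 below (3 and 10 after median-ratio scaling), with a median of -0.23. That is 84.6% negative beside 56.7% of all genes, a difference that was not tested. RAB22A, which links early to recycling endosomes, read 3.91, 4.44 and 3.99 FPKM against 5.88, 5.37 and 5.42. Its libraries separated fully and were the tightest of all members, yet at this low level its log2 difference was -0.36 ± 0.27 (limma adjusted p = 0.928, exact permutation p = 0.1). It has 1 listed transcript, on chromosome 20 from 56884752 to 56942563, plus strand (hg19).

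RAB35, of fast recycling and of cytokinesis, was the member that separated upward. It read 30.3, 34.1 and 27.0 FPKM in the SNHG10 libraries, compared with 24.4, 21.3 and 24.6 under LacZ probes, so every SNHG10 library lay above every LacZ library. The log2 difference was 0.36 ± 0.17 (limma adjusted p = 0.885, exact permutation p = 0.1). The gene spans chromosome 12, 120532899 to 120554643, minus strand (hg19). RAB1A, RAB6A, RAB22A and RAB35 were the 4 separated members: 3 of 45 lower beside 7.21% of all genes tested, and 1 higher beside 4.22%. Together that is 8.89% of members and 11.4% of all genes, a share near that of genes in general.

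The RAB5 genes, RAB11B and RAB4B overlapped between the probe sets. RAB5C read 84.5, 78.8 and 82.2 FPKM against 98.5, 85.0 and 77.6, a log2 difference of -0.08 ± 0.13. A listed gene that overlaps RAB5C on the same strand, AC099811.2, read 4.91, 10.9 and 0 against 0, 18.6 and 0. RAB5B read 16.2, 3.38 and 6.64 against 3.12, 18.5 and 10.4, with a high and a low library on each side. RAB11B read 29.7, 41.2 and 38.1 against 49.6, 36.7 and 35.5. RAB4B, of rapid recycling to the surface, read 1.84, 1.05 and 6.03 against 4.61, 6.47 and 5.52. SNHG10 replicates 1 and 2 were low for it and replicate 3 was not, and the log2 difference was -0.91 ± 0.48 (limma adjusted p = 0.907). It was -0.54 without SNHG10 replicate 2 and -1.43 without SNHG10 replicate 3.

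In the late endosomal, lysosomal and autophagy group, the log2 difference was above 0 in 6 of 9 tested genes and below 0 in 3, with a median of 0.11. RAB7A, the main regulator of lysosomal fusion, was steady at 71.0, 63.8 and 68.9 FPKM against 65.3, 73.7 and 75.4 (log2 difference -0.07 ± 0.13). RAB32, of melanosomes and other lysosome-related organelles, read 31.6, 16.9 and 22.1 against 15.7, 18.3 and 17.1, so only SNHG10 replicates 1 and 3 stood above the LacZ libraries. RAB24, linked to autophagy, had the widest spread of the family, at 14.4, 7.84 and 4.28 FPKM against 3.23, 7.16 and 0. Its log2 difference of 1.46 ± 0.77 was 0.61 without LacZ replicate 3, the library listed at 0. RAB9A, which returns mannose 6-phosphate receptors to the Golgi, read 2.45, 6.10 and 7.53 against 5.56, 1.34 and 2.37, with an overlap on both sides. RefSeq names 5 pseudogenes of RAB9A, with which reads could be shared. In all, 8 members have pseudogenes named there, and sharing of reads was not tested.

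RABs of secretion, cell polarity and the cilium were close to evenly divided, with 4 log2 differences above 0 and 5 below among 9 tested. RAB13, of tight junctions, averaged 34.6 ± 4.39 and 37.6 ± 2.77 FPKM (SD, n = 3 each), and RAB10, of basolateral and surface delivery, 32.3 ± 1.53 and 28.2 ± 2.94. RAB10 did not separate as deposited but did, upward, after median-ratio scaling. RAB8B, of transport from the Golgi to the surface, read 4.03, 20.5 and 3.89 FPKM against 5.05, 22.8 and 17.2. It was high in SNHG10 replicate 2 and LacZ replicates 2 and 3, and low in the other libraries. The RAB40 genes carry a SOCS box that recruits a ubiquitin ligase. RAB40B read 0, 0.328 and 2.01 against 2.72, 1.72 and 0.871, and RAB40C 1.72, 0.159 and 6.26 against 5.38, 5.39 and 3.82. RAB40C was lowest in SNHG10 replicates 1 and 2 but highest in replicate 3, and its log2 difference of -1.03 ± 0.63 was -1.71 without that library and -0.39 without SNHG10 replicate 2.

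Several RABs come as sets of close paralogs, and in most the same paralog led throughout. Of 13 such sets with at least 2 listed genes, 7 had the same most abundant gene in all 6 libraries. RAB5C held 78.1% to 92.7% of the RAB5 sum, RAB1B 63.8% to 78.0% of RAB1, RAB6A 70.3% to 79.5% of RAB6, RAB2A 64.7% to 82.2% of RAB2 and RAB11B 59.6% to 77.3% of RAB11. RAB3B held 47.0% to 59.6% of the RAB3 sum and RAB9A 54.3% to 91.2% of RAB9. RAB8A and RAB8B changed order between libraries, with RAB8B at 21.1% to 81.0% of their sum. That change followed 1 RAB8B transcript row, RAB8B-204, which was above 0 in 3 libraries. The other, RAB8B-201, stayed between 3.56 and 5.05 FPKM, below the lowest RAB8A library (5.34). The leading paralog's share did not separate the probe sets in any of the 13 sets.

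The summed level of a set separated the probe sets in 3 of the 13, each lower with SNHG10 probes. Of all single genes tested, 11.4% separated, with 7.21% lower, but no share was taken over comparable sums of other genes. RAB1A and RAB1B together read 85.1, 97.6 and 91.5 FPKM against 100.5, 126.6 and 118.0. RAB6A and RAB6B together read 18.3, 15.8 and 16.8 against 23.3, 22.6 and 27.0. RAB3A, RAB3B and RAB3D, which serve regulated exocytosis, read 13.7, 14.3 and 16.3 against 18.3, 17.3 and 16.8. The RAB1 and RAB6 sets contain RAB1A and RAB6A, which separated on their own. All 3 sums are as deposited, without median-ratio scaling. The scaling factors were 0.988 to 1.01 for SNHG10 and 1.03 to 1.05 for LacZ libraries, so scaling shrinks these gaps. The narrow ones, 97.6 against 100.5 FPKM for RAB1 and 16.3 against 16.8 for RAB3, may not hold after it. They were formed with the values known and carry no test.

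All 50 RAB mRNAs together made up a slightly smaller part of the SNHG10 libraries. The family summed to 642.7, 649.5 and 657.3 FPKM in the SNHG10 libraries, compared with 679, 712.2 and 703.9 under LacZ probes, or 0.241% ± 0.00130 and 0.255% ± 0.00641 of the FPKM total (SD, n = 3 each). The libraries did not overlap. The difference between means was -48.5 FPKM, of which RAB1B gave -12.2, RAB1A -11.3 and RAB6A -6.27, while RAB35 gave 7.05 and RAB32 6.48. It was -24.9 FPKM without the RAB1 pair. Median-ratio scaling left it at -19.9 FPKM, still without overlap, and without the 5 most abundant members it was -18.6 FPKM with overlapping libraries. No test was made on the sum, since its members were chosen with results known.

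**Figure D4:**
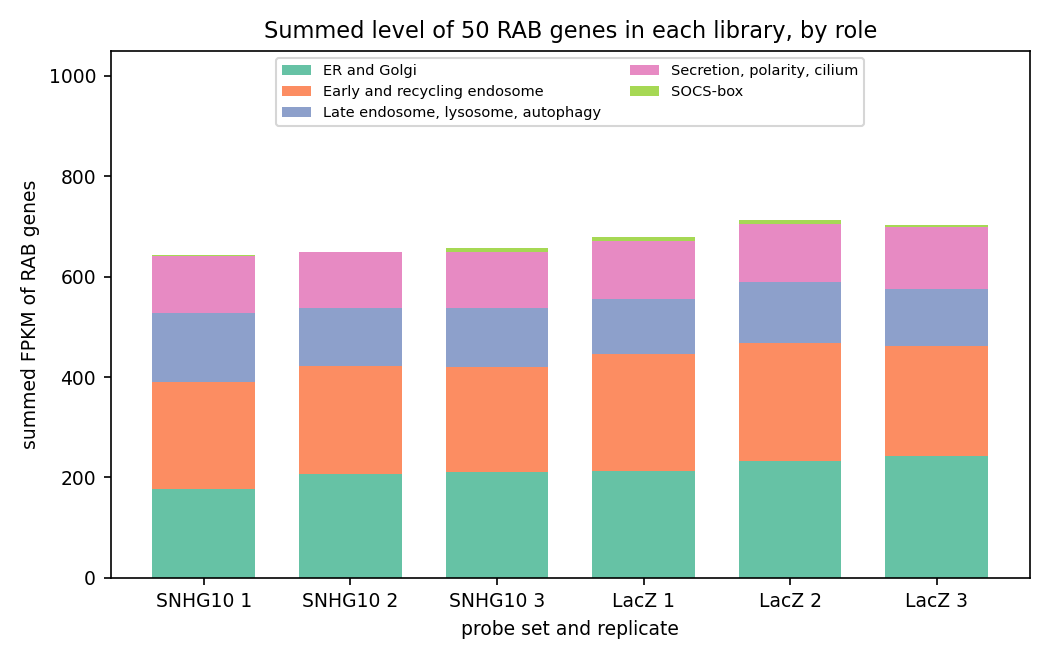
Summed FPKM of the 50 RAB genes (y axis, from 0) in each library, stacked by role. The 3 SNHG10 libraries sum to 642.7 to 657.3 FPKM and the 3 LacZ libraries to 679 to 712.2. The endoplasmic reticulum and Golgi group is at 177.1 to 211.4 and 212.7 to 243.3. The early and recycling endosome group (209.1 to 216.5 and 219.2 to 234.9) and the secretion group (110.8 to 114.4 and 115.1 to 123.9) are also lower. The late endosomal and SOCS-box groups overlap, and the gaps in the others are narrow. As a percentage of the FPKM total the secretion group overlaps too, at 0.0406 to 0.0426 and 0.0415 to 0.0457. All group sums are as deposited. Median-ratio factors were 0.988 to 1.01 for SNHG10 and 1.03 to 1.05 for LacZ libraries, so scaling shrinks these gaps, and they may not hold after it.

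Below the gene level, the authors' estimates split reads between transcripts unevenly from library to library. Of the 100 RAB transcript rows, 46 were above 0 in all 6 libraries, 46.0% beside 38.6% of all rows, and 13 were above 0 in a single library. Of 61 rows tested, 0 passed the adjusted threshold, beside 0.0903% of 16618 rows by limma (0.0481% higher, 0.0421% lower). Those 15 rows rest on the setting: 0 rows were called without any 1 of the 6 libraries or with the replicate block, and 53 with eBayes without trend. Under an unadjusted p of 0.05 lay 2 rows, RAB6A-202 and RAB34-211, both lower, or 3.28% beside 5.66% of all rows (2.59% higher, 3.06% lower). Fully separated rows numbered 3, all lower, or 4.92% beside 10.5% of all rows (4.48% higher, 6.06% lower).

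The separation of RAB6A lay in 1 of its 2 listed transcripts. RAB6A-202 read 6.14, 0.895 and 1.39 FPKM against 10.7, 9.56 and 7.16, a log2 difference of -1.65 ± 0.58 (limma adjusted p = 0.782). RAB6A-201 read 6.74, 10.5 and 11.7 against 7.58, 6.92 and 14.3, with overlapping libraries. For RAB35 neither row separated: RAB35-201 read 14.9, 26.0 and 27.0 against 16.04, 21.3 and 24.6, and RAB35-202 15.4, 8.03 and 0 against 8.36, 0 and 0. RAB1A-203, the main RAB1A transcript, read 26.0, 21.5 and 17.8 against 24.0, 32.3 and 24.1 and overlapped as well. A second RAB1A row, RAB1A-202, was at 7.47 FPKM in SNHG10 replicate 3, at 18.6 in LacZ replicate 3 and at 0 elsewhere. The separation of RAB1A and RAB35 thus appears only after the rows are summed.

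RAB34, with 11 listed transcripts, had the most rows, and its sum varied far less than they did. RAB34-204 read 5.67, 36.9 and 21.3 FPKM against 17.3, 8.57 and 12.2. RAB34-211 read 8.36, 0 and 0 against 10.5, 5.15 and 21.8, with a log2 difference of -2.48 ± 1.01 (limma adjusted p = 0.872). Within probe sets the SD of log2(FPKM + 1) was 0.25 for the RAB34 sum and 0.97 for RAB34-204. For RAB8B the sum followed RAB8B-204, at 0, 16.3 and 0 against 0, 19.2 and 12.9, while RAB8B-201 stayed between 3.56 and 5.05 in all 6 libraries. Of 24 tested members with several rows, the sum was steadier than the leading row in 14, or 58.3% beside 68.1% of all such genes.

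**Figure D5:**
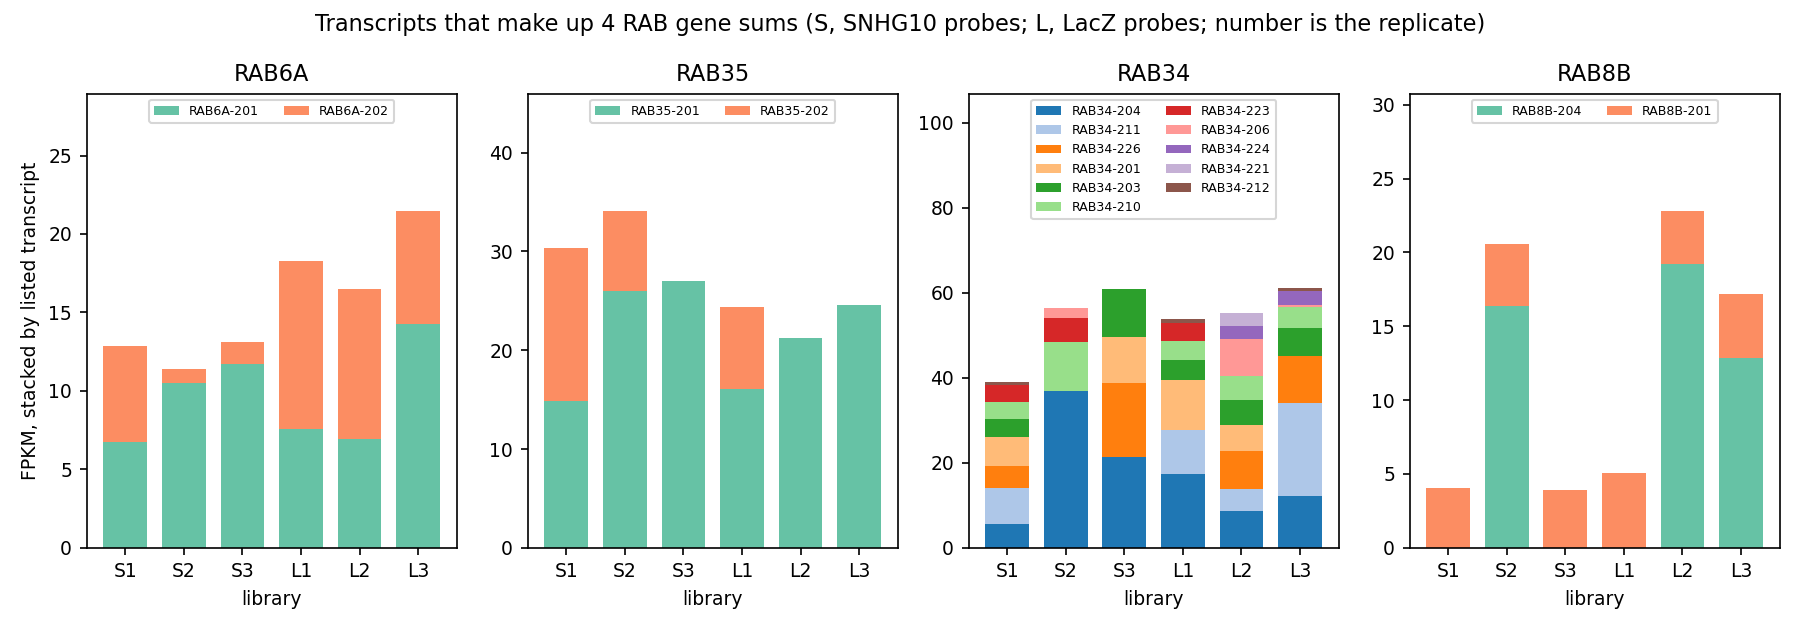
FPKM of the listed transcripts of RAB6A, RAB35, RAB34 and RAB8B, stacked to the gene sum (y axis, from 0) in each library (S, SNHG10 probes; L, LacZ probes). RAB6A-202 is lower in every SNHG10 library, RAB34 keeps a sum of 38.9 to 61.0 FPKM while its 11 rows change places, and RAB8B-204 is present in 3 libraries only.

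The machinery that prepares and recycles RABs gave no call either. All 8 listed factors were tested, with log2 differences above 0 in 2 and below in 6, and 1 (12.5%) had an unadjusted p under 0.05 by limma beside 5.42% of all genes. RABAC1, a Golgi receptor for prenylated RABs, read 22.6, 26.1 and 19.9 FPKM in the SNHG10 libraries against 13.6, 14.1 and 16.2. Its libraries alone separated, upward (log2 difference 0.61 ± 0.20, limma adjusted p = 0.885), again 12.5% of the list beside 11.4% of all genes. RABGGTA and RABGGTB, the subunits of the geranylgeranyl transferase, read 0.530, 1.44 and 4.15 against 3.45, 5.70 and 2.96, and 9.40, 10.6 and 17.4 against 13.7, 15.3 and 26.0. GDI2, the abundant carrier of inactive RABs, stayed between 74.9 and 84.5 FPKM in all 6 libraries.

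Of the exchange factors, 43 of 45 listed were tested, with 24 above 0, 19 below and 0 past the threshold. RAB3IP, which activates RAB8, read 6.41, 5.98 and 5.68 against 2.35, 0.895 and 3.79 (log2 difference 1.17 ± 0.40). It separated upward, as did 4 of the 43 in all, while 1, DENND4B, chosen after its values were seen, separated downward at 6.81, 6.88 and 6.98 against 8.04, 9.55 and 10.96. That is 11.6% separated beside 11.4% of all genes tested, and 2 of the 43 (4.65%) had an unadjusted p under 0.05 beside 5.42% of all genes. DENND2D read 1.83, 6.52 and 1.70 against 7.83, 4.69 and 5.31 and overlapped.

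Among GTPase-activating proteins, 32 of 34 listed were tested, with 17 above 0, 15 below, 0 past the threshold and 0 at an unadjusted p under 0.05 (limma). TBC1D15, which acts on RAB7, read 15.6, 3.44 and 4.25 FPKM against 1.86, 2.95 and 2.74, with SNHG10 replicate 1 far above the rest. It separated upward, and its log2 difference of 1.06 ± 0.52 was 0.47 without that library. TBC1D20, which acts on RAB1, read 6.17, 4.71 and 7.17 against 6.62, 0 and 2.08, and its log2 difference of 1.28 ± 0.68 was 0.52 without LacZ replicate 2, listed at 0, and 1.98 without LacZ replicate 1. TBC1D9B read 9.11, 9.40 and 10.9 against 16.5, 12.9 and 11.3, and separated downward. These 2 separated genes, TBC1D15 and TBC1D9B, are 6.25% of the list beside 11.4% of all genes tested.

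Effectors, which bind the active form, had more log2 differences below 0 than above. Of 33 tested among 35 listed, 9 lay above 0 and 24 below (13 and 20 after median-ratio scaling), with 0 past the threshold and 0 at an unadjusted p under 0.05 (limma). That is 72.7% negative beside 56.7% of all genes, which split 5121 above and 5183 below after that scaling. The lean of effectors beyond that of all genes was not tested. FYCO1, which couples RAB7 to kinesin, read 15.1, 6.67 and 16.9 FPKM against 17.6, 23.7 and 22.0. PLEKHM1, another RAB7 effector, read 10.1, 10.4 and 4.68 against 17.7, 12.3 and 10.8, and the RAB5 effector APPL2 11.7, 13.3 and 14.4 against 18.7, 15.5 and 16.1. All 3 separated downward, with limma adjusted p of 0.885, 0.900 and 0.928. In all, 5 of the 33 separated downward and 1 upward, 18.2% beside 11.4% of all genes tested, a difference that was not tested.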

How the data were processed

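Each library has 1 deposited table of transcript FPKM, per the file headers. The submitters' processing notes name Bowtie2 2.1.0 and hg19. The program that estimated FPKM, and whether strand was used, are not given in the sources used here. Members, gene lists, tests and naming rule were chosen with earlier results of these data known. FPKM were summed per gene symbol. Testing was limited to genes, or transcript rows, reaching 1 FPKM in 3 or more libraries. The model was limma 3.58.1 (R 4.3.3; trended eBayes, no block) on log2(FPKM + 1), with Benjamini-Hochberg adjustment over all features tested and a threshold of 0.05. This scale understates changes of low genes. Single genes also had a two-sided exact permutation test over 20 assignments of libraries (scipy 1.17.1). Named with every value were members with separated libraries, the 5 with the smallest p in each direction, the 5 highest means, the 5 largest SDs within probe sets, genes of rows with an unadjusted p under 0.05, and the 3 smallest p of each regulator list. Of these, 1 gene is not reported here. RAB10, RAB13, RAB26, GDI2 and the other members and paralogs given with values were chosen after seeing them. The fit was also run on simulated data, with larger shifts than the differences of RAB1A and RAB6A, so its power for differences that small was not measured. Tables used pandas 2.3.3. The 15 alternatives changed the pseudocount, the filter, the scaling, the eBayes options or the block, or omitted a library.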

Additional observations from a re-analysis of the deposited data

How the results depend on the processing

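The count of RAB genes past the threshold was 0 in both directions under all 15 alternatives, as was the count of RAB transcript rows. Over all genes the leave-one-out runs called 0 to 1 higher and 0 to 1 lower. With the replicate number as a block, 0 RAB genes and 0 RAB transcript rows passed, and the smallest adjusted p among RAB genes was 0.886 by limma. Between libraries that share a replicate number, the deviations from the group means had correlations of 0.0151, 0.0121 and 0.0161. All are under 0.1, and no pairing was assumed, although each library correlated best with its own number. Leave-one-out ranges of the log2 difference crossed 0 for RAB34 (-0.267 to 0.0505), RAB43 (-0.36 to 0.86), RAB5B (-0.84 to 0.28) and RAB5C (-0.161 to 0.00954), and the cause was not tested. The RAB34 sign turned without SNHG10 replicate 1, RAB43 without LacZ replicate 2, RAB5C without LacZ replicate 1, and RAB5B without SNHG10 replicate 2 or LacZ replicate 2. Of 590 alternative values, 580 kept their direction and side of the threshold, or for counts and sums stayed close. The settings tried on the RAB sum, and median-ratio scaling of the separation counts, were added after seeing the data. Unknown depth limits what values below about 1 FPKM can show.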
